A study of Homo sapiens with 12 samples.

Results

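The 39 genes described here encode the actomyosin cytoskeleton and its adhesion sites, the coat of caveolae, and the TEAD factors with genes that YAP and TAZ drive. They are a list of gene symbols, 39 of the 58302 genes in the count files, followed across 12 samples. The list was selected on measured expression differences between these same samples, and which comparison guided it is not recorded, so the number of members that differed is a description and supports nothing on its own. Standard errors and adjusted p-values of members come from a fit over all genes and do not account for that choice.

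RNA was sequenced from human neural progenitor cells (NPCs) derived from H1, an established line of embryonic stem cells, by dual inhibition of TGF-beta and BMP signalling. Wild-type (WT) cells were compared with dKO cells, a line in which the catalytic domains of the H3K27me3 demethylases UTX (KDM6A) and JMJD3 (KDM6B) were deleted with CRISPR/Cas9. There were 6 groups of 2 samples: WT and dKO NPCs at passage 2 and at passage 4, grown as neural spheres with bFGF and EGF, and WT and dKO cells after 28 days of spontaneous differentiation. The day 28 cells started from passage 2 NPCs and were kept without those growth factors in medium with GDNF, BDNF and cAMP, which were shared by both genotypes. The dKO samples come from H1-dKO alone, so the knockout and other properties of that line cannot be told apart, and the labels do not say whether paired samples were separate differentiations. The labels name passage 4 for the late NPCs, and passage 2 for the others was taken from the study's text.

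Contractile force in non-muscle cells comes from myosin II sliding on actin filaments that tropomyosins and calponins decorate and that alpha-actinins and filamins crosslink. Talin, vinculin, zyxin and paxillin tie these filaments to integrins. Caveolae are small pits of the plasma membrane built from caveolins and cavins that flatten when the membrane is stretched. Tension and loss of cell contacts let YAP and TAZ enter the nucleus, where they act through TEAD factors on genes such as CCN1, CCN2 and ANKRD1. The same tension releases MRTF, the partner of SRF, which binds CArG boxes upstream of many actin-binding genes.

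The upstream sequences of 5 members are shown because they carry the letters through which these factors bind, in genes that were higher in dKO cells in at least 1 comparison below. RefSeq (GRCh38.p14) windows were available for 32 of the 39 members, as 57 windows from 250 bases before to 50 bases after a transcription start. No window was used for TAGLN, MYL9, CAVIN1, CAVIN3, TEAD1, TEAD4 and CCN1. Capitals mark GGAATG or its reverse complement CATTCC, the core that TEAD factors bind. They also mark the CArG box of SRF in its strict form CCWWWWWWGG, where each W is A or T. Each run is the 250 bases before the start, read 5′ to 3′ on the gene's own strand in hg38.
ANKRD1, chr10:90921088-90921337, minus strand: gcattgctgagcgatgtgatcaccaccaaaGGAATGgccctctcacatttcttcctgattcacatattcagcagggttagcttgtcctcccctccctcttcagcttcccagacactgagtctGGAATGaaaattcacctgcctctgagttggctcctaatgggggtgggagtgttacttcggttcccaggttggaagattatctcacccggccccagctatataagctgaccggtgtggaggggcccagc
CCN2, chr6:131951373-131951622, minus strand: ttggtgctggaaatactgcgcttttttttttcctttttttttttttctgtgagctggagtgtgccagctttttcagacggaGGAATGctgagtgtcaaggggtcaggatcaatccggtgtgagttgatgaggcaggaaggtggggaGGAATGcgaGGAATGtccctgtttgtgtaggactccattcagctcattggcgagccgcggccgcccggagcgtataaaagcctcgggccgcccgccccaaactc
ACTA2, chr10:88952774-88953023, minus strand: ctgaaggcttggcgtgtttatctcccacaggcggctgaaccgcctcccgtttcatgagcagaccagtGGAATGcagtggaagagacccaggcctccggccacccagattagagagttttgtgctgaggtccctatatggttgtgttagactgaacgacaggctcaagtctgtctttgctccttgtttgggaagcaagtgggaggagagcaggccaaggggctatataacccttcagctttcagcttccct
CNN2, chr19:1026358-1026607, plus strand: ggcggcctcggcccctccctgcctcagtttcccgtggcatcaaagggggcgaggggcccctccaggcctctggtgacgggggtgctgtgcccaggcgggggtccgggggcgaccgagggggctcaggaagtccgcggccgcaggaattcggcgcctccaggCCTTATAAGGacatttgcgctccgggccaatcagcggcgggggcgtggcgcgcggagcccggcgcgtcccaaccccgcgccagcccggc
AKAP12, chr6:151239717-151239966, plus strand: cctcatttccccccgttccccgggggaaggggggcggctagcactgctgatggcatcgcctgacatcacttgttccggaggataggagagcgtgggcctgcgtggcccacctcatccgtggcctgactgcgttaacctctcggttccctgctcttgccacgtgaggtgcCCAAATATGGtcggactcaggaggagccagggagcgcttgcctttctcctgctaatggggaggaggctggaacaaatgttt
The window of CCN2 held 3 TEAD cores, whose first bases lay 169, 104 and 95 bases before the start, and that of ANKRD1 held 2, at 220 and 128 bases. The only exact match in ACTA2 was a TEAD core at 183 bases. Its sequence also holds ccctatatgg and ccttgtttgg, each 1 base away from the strict CArG pattern, which were not counted. CNN2 and AKAP12 had a CArG box at 89 and 81 bases. Searched on both strands, the TEAD core was present in 16 of the 57 windows of members (28.1%) and in 4928 of all 35116 windows (14%). A CArG box of the strict form was present in 5 (8.77%) and in 454 (1.29%), respectively. Several windows belong to 1 gene, and a match describes the letters alone.

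Total counts lay between 756942 and 10601172 per sample and were lowest at passage 2, where 3 counts correspond to 2.12 to 3.92 CPM, the unit of all levels below, in which counts are scaled to a common library size by the TMM method. Unless stated otherwise, a pair of values gives the 2 WT samples and the pair after "against" the 2 dKO samples. KDM6A was at 61.4 and 54.4 against 39.8 and 38.9 at passage 2, at 50.4 and 53.9 against 31.9 and 27.7 at passage 4, and at 44.3 and 49.0 against 59.4 and 32.4 at day 28. KDM6B was at 157 and 184 against 155 and 159, then at 117 and 127 against 188 and 184, and at 205 and 189 against 146 and 152. The counts cover whole genes, and the deletion removed only the catalytic part, so they do not check the labels. Some libraries stood apart for these genes: WT sample 1 at passage 2 was below WT sample 2 in 36 of the 39 members, by a median of 0.46 on a log2(CPM + 1) scale, although it was lower for 49.3% of all genes tested. In dKO NPCs at passage 2 sample 1 was the lower for 32 members and at day 28 for 29. The 2 dKO samples of day 28 also differed most over all genes, with a chi-square of 7.79 per degree of freedom, against 1.36 to 2.16 in the other groups. The labels name no batch, so batch and group cannot be told apart. In bulk samples, fewer cells of a type and less RNA per cell cannot be told apart either.

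The members were mostly higher in dKO than in WT cells at each stage. Summed over the 39 genes, levels were 6963 and 9627 CPM in WT against 14920 and 17020 CPM in dKO NPCs at passage 2. The sums were 4406 and 4397 against 9201 and 9249 CPM at passage 4, and 4303 and 4251 against 7013 and 7983 CPM at day 28. The pairs did not overlap at any stage, and the dKO sums at passage 4 lay in the range of the WT sums at passage 2.

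A gene was called when its unadjusted p was below 0.05 and its fold change above 2 in the edgeR fit of the 13454 genes whose counts averaged 20 or more per sample. Of the members 36 passed that filter, and CAV2, CAVIN3 and TEAD4 did not, with means of 18.2, 15.7 and 19.9 counts. At passage 2, 14 of the 36 were called higher and 0 lower in dKO NPCs, where 2.59% and 1.83% of all genes tested were called. At passage 4, 22 were called higher and 0 lower, against a background of 11.1% and 11.2%. At day 28, 17 were called higher and 1 lower, against 12.4% and 11.7%. DESeq2 called 0 lower at both passages, and at an unadjusted edgeR p below 0.05 without the fold limit 0 were lower at passage 2 and 2 at passage 4. Median log2 fold changes of the 36 were 0.81, 1.33 and 0.99, while the medians over all genes tested were 0.00, 0.02 and 0.00. Of the 39 members, 36 had both dKO samples above both WT samples at passage 2, 34 at passage 4 and 30 at day 28, where 24.8%, 39.9% and 38.1% of all genes tested did so.

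The count at passage 2 depended on the WT samples. It was 7 without WT sample 1 and 19 without WT sample 2, with medians of 0.52 and 1.12. TAGLN, ACTA2, TPM1, ACTN1, CAVIN1, CCN2 and ANKRD1 remained called without WT sample 1. Adjusting for GC content and gene length gave 8, and fitting only the 4 samples of the comparison gave 9. In that last fit TAGLN (1.76), ACTA2 (1.69), TPM1 (1.61), MYL9 (1.79) and CCN2 (1.51) were not called. After Benjamini-Hochberg adjustment in the edgeR fit, 10 of the 14 were below 0.05 (0.981% of all genes tested were called higher on that basis), and ACTA2, MYL9, CAV1 and ANKRD1 were not.

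Across the 3 stages 28 members were called in at least 1 comparison. The share of all genes called in at least 1 or in all 3 comparisons was not computed, so the counts in this paragraph cannot be weighed against it. ACTN1, CCN2, MYH9, MYL9 and TPM1 were higher in dKO cells at all 3, 15 members at 2 of them and 8 at 1. TAGLN2, CNN3, TPM4, FLNA, ZYX, LIMA1, TEAD1 and AMOTL1 were called at none. The comparisons use different samples, and the WT and dKO day 28 cells descend from passage 2 NPCs.

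**Figure D1:**
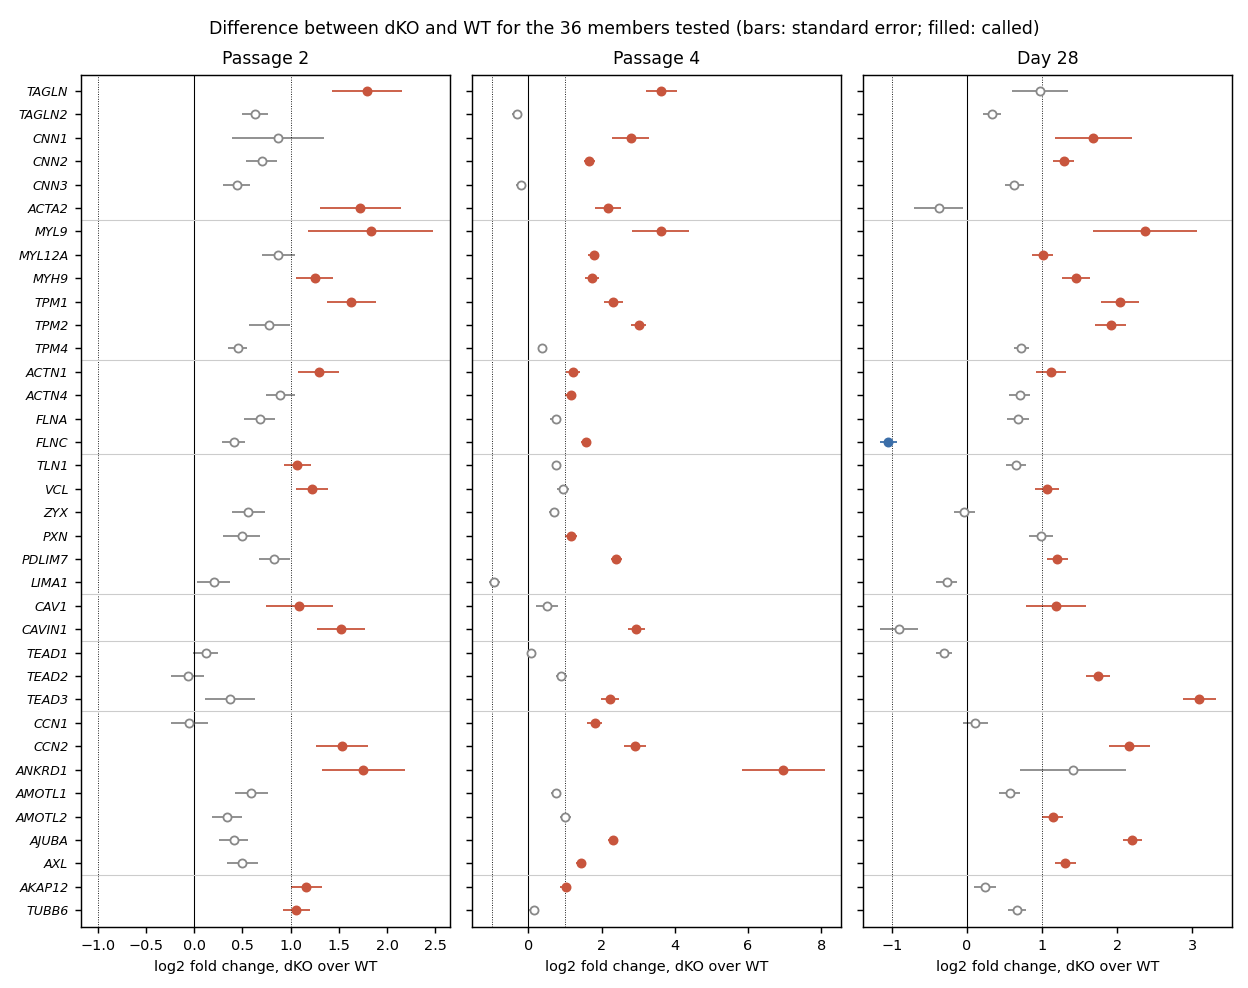
Log2 fold change of dKO over WT (x axis, its own scale in each panel) for the 36 members tested at passage 2, passage 4 and day 28, with bars for the standard error and dotted lines at a fold of 2. Filled points are called genes, red when higher and blue when lower in dKO cells. There are 14, 22 and 17 red points, and FLNC at day 28 is the only blue point.

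Of the 6 genes for actins and actin binders of the smooth muscle type, 2 were called higher in dKO cells at passage 2, 4 at passage 4 and 2 at day 28. For this and each later group of members, the shares of all genes called higher at these stages were 2.59%, 11.1% and 12.4%. The shares called lower were 1.83%, 11.2% and 11.7%. The groups are small, so their counts are descriptions only. TAGLN (chromosome 11, 117199370 to 117207464, plus strand) encodes transgelin, a protein that binds actin filaments. It was at 120 and 297 against 636 and 862 CPM at passage 2, a log2 fold change of 1.79 ± 0.36 (edgeR adjusted p = 0.048), where ± here and below is the standard error of the fit with 2 samples per group. At passage 4 it was at 16.7 and 14.9 against 205 and 184, a difference of 3.63 ± 0.43. The WT samples were at most 16.7 CPM there and the dKO samples at least 184 CPM. By day 28 TAGLN was at 26.3 and 30.0 against 46.5 and 63.5, and its difference of 0.97 ± 0.37 was not called. ACTA2, the smooth muscle alpha-actin gene on chromosome 10, was at 3.92 and 29.1 against 54.8 and 71.4 CPM at passage 2, 8.02 and 10.5 against 44.7 and 40 at passage 4, and 19.8 and 17.9 against 12.6 and 16 at day 28. The WT value of 3.92 at passage 2 rests on 3 reads. ACTA2 was called higher at passage 2 (1.72 ± 0.42) and passage 4 (2.17 ± 0.36), and at day 28 both dKO samples were below both WT samples with no call (-0.38 ± 0.33).

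Calponins bind actin and restrain myosin. CNN1, the smooth muscle form, was low throughout, at 5.22 and 18.6 against 18.8 and 29.7 CPM at passage 2, 1.34 and 2.57 against 13.6 and 14.7 at passage 4, and 2.16 and 0.805 against 5.82 and 3.67 at day 28. The pairs touched at passage 2 (18.6 against 18.8) and were separate at passage 4, where the log2 fold change was 2.79 ± 0.51, and at day 28 (1.68 ± 0.51, but 1.09 and not called without WT sample 2). CNN2 was at 185 and 257 against 339 and 388 CPM at passage 2, 74.5 and 86.6 against 254 and 257 at passage 4, and 87.0 and 84.7 against 183 and 237 at day 28. Its differences were 0.70 ± 0.16, under the fold limit, then 1.66 ± 0.15 and 1.29 ± 0.14, both called. TAGLN2 and CNN3, the forms found in many cell types, were called at no stage, with log2 fold changes from -0.32 to 0.63. Members of this group share reads with neighbours in part: 2233 bases of TAGLN exons lie opposite PCSK7, and ACTA2 exons overlap ACTA2-AS1 and FAS on the other strand. Since the counting is not stated to use strand, reads of such pairs cannot be told apart.

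Of the 6 myosin II and tropomyosin genes, 3 were called higher in dKO cells at passage 2 and 5 at both later stages. The summed level of the 6 genes was 1567 and 2404 CPM in WT against 4297 and 5012 CPM in dKO NPCs at passage 2. It was 882.6 and 811.9 against 2601 and 2531 CPM at passage 4 and 751.9 and 763.4 against 1847 and 2085 CPM at day 28. MYH9 (chromosome 22, 36281280 to 36388010, minus strand), the heavy chain of non-muscle myosin IIA, was at 581 and 927 against 1690 and 1920 CPM at passage 2, 294 and 275 against 925 and 968 at passage 4, and 280 and 274 against 642 and 872 at day 28. Its log2 fold changes were 1.25 ± 0.19, 1.73 ± 0.19 and 1.45 ± 0.19, all called, and the value at passage 2 was 0.96 without WT sample 1 and 0.87 with the GC and length adjustment. TPM1, which encodes a tropomyosin of stress fibres, was at 369 and 701 against 1480 and 1880 CPM at passage 2, 194 and 159 against 909 and 854 at passage 4, and 141 and 146 against 626 and 554 at day 28. TPM1 was called at every stage with 1.63 ± 0.25, 2.32 ± 0.26 and 2.04 ± 0.25, and part of its exons lies opposite TPM1-AS.

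The regulatory light chain gene MYL9 was at 23.5 and 93.2 against 200 and 253 CPM at passage 2, 7.35 and 6.16 against 86.0 and 78.2 at passage 4, and 6.36 and 6.34 against 13.8 and 50.4 at day 28. The samples were far apart within WT at passage 2 and within dKO at day 28. MYL9 was called at each stage, with 1.83 ± 0.65 (edgeR adjusted p = 0.249), 3.61 ± 0.77 and 2.37 ± 0.69, and the day 28 value was 1.12 and not called without dKO sample 2. It also lost its call at day 28 without either WT sample (2.35 and 2.34), and at passage 2 without WT sample 1 (1.28) or dKO sample 2 (1.65). MYL12A, a second light chain, was at 77.0 and 102 against 161 and 173 CPM at passage 2, 49.4 and 35.4 against 151 and 140 at passage 4, and 51.7 and 53.5 against 112 and 100 at day 28. It was called at passage 4 (1.79 ± 0.15) and, at the edge of the fold limit, at day 28 (1.01 ± 0.14), where it was at 0.98 without WT sample 1, 0.94 without dKO sample 1 and 0.77 with the GC and length adjustment. MYL12A is nearly identical in sequence to MYL12B, and how the counting divided shared reads is uncertain. TPM2 was at 45.7 and 75.3 against 110 and 106 CPM at passage 2, 11.7 and 11.3 against 100 and 85.6 at passage 4, and 8.76 and 12.3 against 37.1 and 42.6 at day 28. Its differences were 0.78 ± 0.21, under the fold limit, then 3.01 ± 0.21 and 1.91 ± 0.20, both called. The 2 WT samples of passage 4 were below all other samples but those of WT at day 28. TPM4 was not called at any stage, at 0.36 to 0.72.

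**Figure D2:**
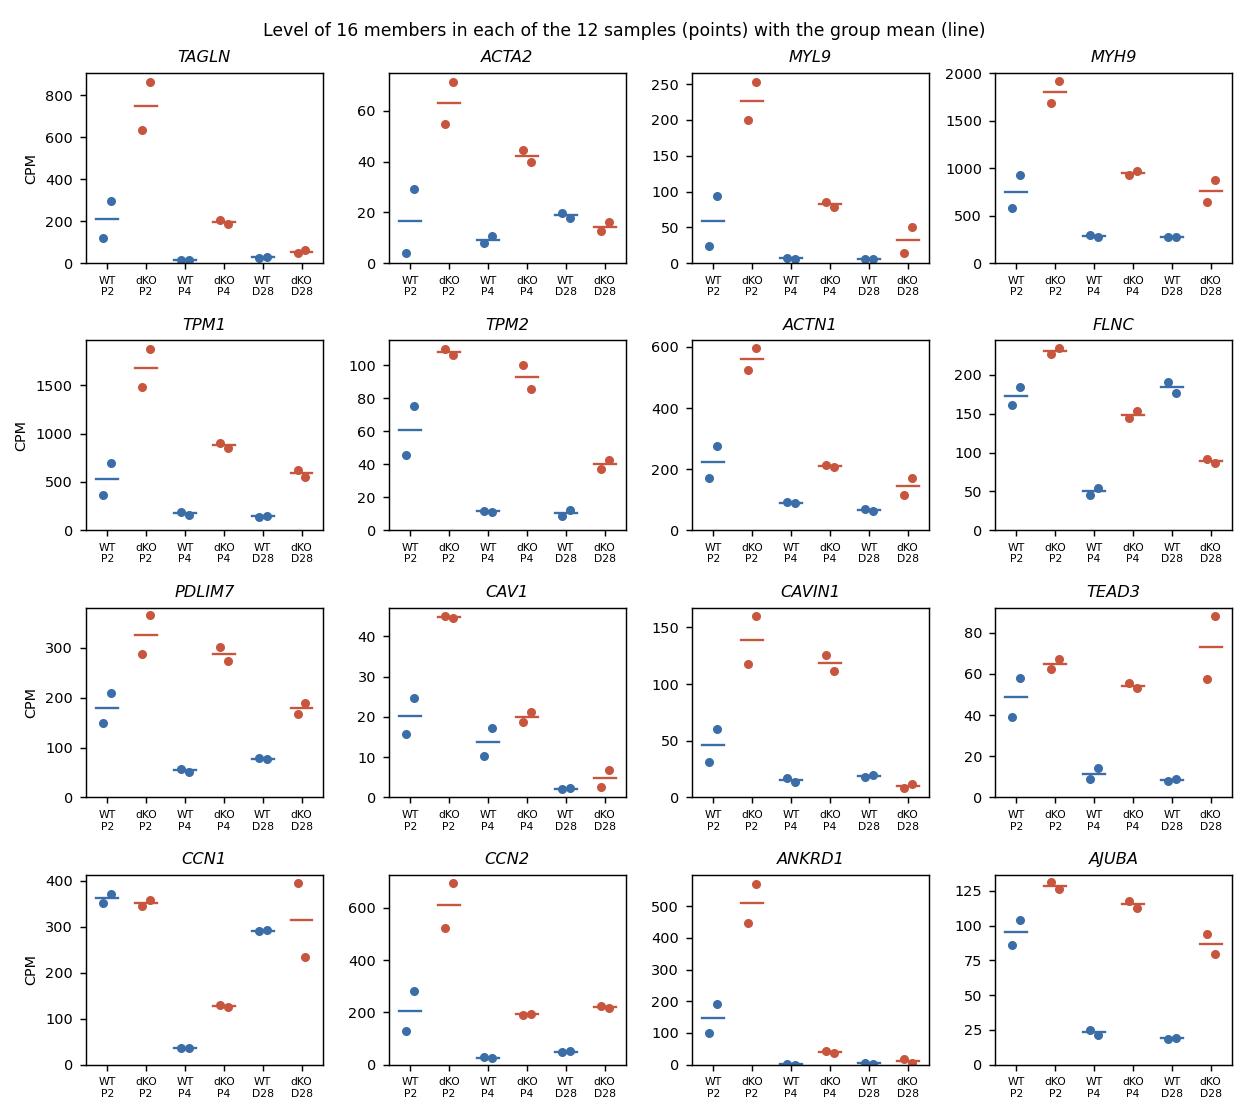
CPM (y axis, from 0, own scale in each panel) of 16 members in each of the 12 samples, with a line at the mean of each group of 2; blue is WT and red is dKO, at passage 2 (P2), passage 4 (P4) and day 28 (D28). In TAGLN, MYL9 and TPM1 the dKO points lie above the WT points at all 3 stages, whereas for FLNC and CAVIN1 they lie above at passages 2 and 4 and below at day 28.

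Of the 4 crosslinkers of actin filaments, 1 was called higher in dKO cells at passage 2, 3 at passage 4 and 1 at day 28, when another was called lower. ACTN1, the alpha-actinin of stress fibres on chromosome 14, was at 170 and 277 against 525 and 595 CPM at passage 2, 91.5 and 89.1 against 213 and 208 at passage 4, and 68.2 and 64.3 against 117 and 171 at day 28, and was called at all 3 stages, with 1.29 ± 0.21, 1.22 ± 0.20 and 1.12 ± 0.20. Without dKO sample 2 the day 28 value was 0.82 and not called. ACTN4 was at 292 and 393 against 598 and 687 CPM at passage 2, 183 and 188 against 422 and 402 at passage 4, and 241 and 232 against 327 and 442 at day 28, and was called at passage 4 alone (1.15 ± 0.15). FLNA, which encodes the main filamin, was at 1330 and 1790 against 2420 and 2600 CPM at passage 2, 897 and 868 against 1460 and 1500 at passage 4, and 947 and 941 against 1240 and 1790 at day 28. The dKO samples were above the WT samples at every stage, and the differences of 0.68 ± 0.16, 0.74 ± 0.16 and 0.68 ± 0.15 stayed under the fold limit. FLNC, a filamin of muscle and of strained actin bundles (chromosome 7, 128830406 to 128859274, plus strand), was at 161 and 184 against 227 and 235 CPM at passage 2, 45.4 and 54.7 against 144 and 153 at passage 4 and 191 and 177 against 91.1 and 86.7 at day 28. FLNC was higher in dKO NPCs at passage 4 (1.56 ± 0.12) and lower in dKO cells at day 28 (-1.05 ± 0.11, edgeR adjusted p = 7.81e-07), the 1 member called lower. With the GC and length adjustment the day 28 value was -0.80, under the fold limit.

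At focal adhesions, talin links integrins to actin and vinculin reinforces that link. Of the 6 genes for such proteins 2 were called higher at each stage, against 2.59%, 11.1% and 12.4% of all genes. TLN1 was at 158 and 194 against 360 and 388 CPM at passage 2, 203 and 197 against 321 and 355 at passage 4, and 136 and 129 against 182 and 236 at day 28, and was called at passage 2 (1.07 ± 0.14). VCL was at 206 and 349 against 619 and 699 CPM at passage 2, 174 and 179 against 333 and 345 at passage 4, and 121 and 123 against 242 and 268 at day 28, and was called at passage 2 (1.22 ± 0.17) and day 28 (1.06 ± 0.16). These calls lay near the fold limit: without WT sample 1 the passage 2 values were 0.95 and 0.92, and with the GC and length adjustment 0.85 and 1.00, none of them called. VCL at day 28 was 0.99 without dKO sample 2 and 0.81 with that adjustment. PXN, the paxillin gene, was at 77.0 and 106 against 125 and 138 CPM at passage 2, 46.1 and 43.1 against 89.9 and 109 at passage 4, and 49.0 and 56.7 against 89.0 and 119 at day 28, and was called at passage 4 (1.16 ± 0.17), though not with the GC and length adjustment (0.89). PDLIM7, a PDZ and LIM domain protein that binds actin filaments, was at 150 and 210 against 288 and 365 CPM at passage 2, 57.8 and 51.1 against 301 and 273 at passage 4, and 78.5 and 77.2 against 167 and 190 at day 28. It was called at passage 4 (2.40 ± 0.15) and day 28 (1.20 ± 0.14). ZYX, which marks strained stress fibres, was not called at any stage. LIMA1, an actin-bundling LIM protein, was at 93.9 and 104 against 46.6 and 57.6 CPM at passage 4, where the dKO samples were the lower (-0.93 ± 0.15, under the fold limit).

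Both caveolar genes that passed the filter were called higher in dKO NPCs at passage 2, 1 at passage 4 and 1 at day 28. CAV1, which encodes the main caveolin (chromosome 7, 116524994 to 116561179, plus strand), was at 15.7 and 24.6 against 45.0 and 44.6 CPM at passage 2, 10.4 and 17.2 against 18.7 and 21.3 at passage 4, and 2.04 and 2.21 against 2.67 and 6.75 at day 28. It was called higher at passage 2 (1.09 ± 0.35, edgeR adjusted p = 0.116) and day 28 (1.18 ± 0.40), but was at 0.86 without WT sample 1 in the former and 0.32 without dKO sample 2 in the latter. The GC and length adjustment gave 0.97 and 0.89, not called. CAVIN1, the cavin that caveolae cannot form without, was at 31.3 and 60.4 against 118 and 160 CPM at passage 2, 17.4 and 13.6 against 126 and 112 at passage 4, and 18.4 and 20.1 against 8.24 and 12 at day 28. CAVIN1 was higher in dKO NPCs at both passages (1.52 ± 0.25 and 2.95 ± 0.23), and at day 28 both dKO samples were below both WT samples, a difference of -0.91 ± 0.25 that stayed under the fold limit (edgeR adjusted p = 0.00698). CAV2, which pairs with CAV1 and lies next to it, was at 2.61 and 8.94 against 11.3 and 15.6 CPM at passage 2, 11 and 9.5 against 3.51 and 6.13 at passage 4, and 1.44 and 2.01 against 1.21 and 3.86 at day 28, and CAVIN3 at 0 and 8.20 against 11.3 and 12 CPM at passage 2, 0 and 0 against 11.2 and 9.07 at passage 4, and 0.360 and 0.503 against 3.88 and 6.95 at day 28. Both were too low for the count filter. CAVIN3 had 0 reads in both WT samples and 85 reads in the dKO samples at passage 4, at least 23.3-fold higher against a floor of 3 counts over the WT group. In a fit of all genes with at least 1 count, CAV2 was 1.06 ± 0.50 at passage 2 (edgeR adjusted p = 0.499) and -1.11 ± 0.38 at passage 4 (adjusted p = 0.0169), the opposite direction to CAVIN1 at that passage.

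Among the TEAD factors, which bind DNA and recruit YAP and TAZ, 0 of the 3 tested were called at passage 2, 1 at passage 4 and 2 at day 28, all higher in dKO cells. TEAD1 was at 189 and 177 against 203 and 194 CPM at passage 2, 152 and 189 against 167 and 192 at passage 4, and 228 and 216 against 175 and 183 at day 28, and was called nowhere. TEAD2 was at 168 and 182 against 181 and 153 CPM at passage 2, where the pairs overlapped. It was then at 66.8 and 72.4 against 136 and 124 at passage 4 (0.90 ± 0.16, under the fold limit) and 44.9 and 37.3 against 112 and 162 at day 28 (1.74 ± 0.16, called). TEAD3 (chromosome 6, 35473597 to 35497079, minus strand) was at 39.2 and 58.1 against 62.3 and 67.2 CPM at passage 2, 8.69 and 14.1 against 55.5 and 53.0 at passage 4, and 8.16 and 8.95 against 57.7 and 88.2 at day 28. Its difference was 0.37 ± 0.26 at passage 2 and 2.22 ± 0.25 and 3.09 ± 0.22 at the other stages, both called. TEAD4 was at 10.4 and 12.7 against 9.01 and 9.90 CPM at passage 2, 1.34 and 1.80 against 8.20 and 10.5 at passage 4, and 1.56 and 0.604 against 6.06 and 10.6 at day 28, under the count filter. In the fit of all genes with at least 1 count it was -0.30 ± 0.47 at passage 2 and was called at passage 4 (2.50 ± 0.46) and day 28 (2.92 ± 0.41). For TEAD2, TEAD3 and TEAD4 the WT samples of both later stages were below the WT samples of passage 2, whereas the dKO samples were not called lower than at passage 2.

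The genes that YAP and TAZ are known to induce, together with junction proteins that bind YAP or its regulators, numbered 7, of which 2 were called higher at passage 2, 5 at passage 4 and 4 at day 28. CCN2, a secreted matrix protein whose upstream window holds 3 TEAD cores, was at 128 and 281 against 525 and 694 CPM at passage 2, 27.1 and 24.4 against 191 and 194 at passage 4, and 48.6 and 50.4 against 225 and 217 at day 28, and was called at all 3 stages, with 1.53 ± 0.27, 2.91 ± 0.31 and 2.16 ± 0.27. CCN1, a close relative, was at 352 and 372 against 345 and 358 CPM at passage 2, 35.7 and 37.0 against 130 and 126 at passage 4, and 290 and 292 against 395 and 233 at day 28. It was called at passage 4 (1.81 ± 0.21) but not at passage 2 (-0.05 ± 0.19), and the dKO samples straddled the WT samples at day 28 (0.11 ± 0.17). ANKRD1, an ankyrin repeat protein of nucleus and sarcomere (chromosome 10, 90912096 to 90921087, minus strand), ranged from 0 to 571 CPM over the samples. Its levels were 101 and 192 against 447 and 571 at passage 2, 0.668 and 0 against 43.3 and 37.0 at passage 4 and 4.32 and 3.22 against 16.7 and 4.25 at day 28. The difference was 1.75 ± 0.43 at passage 2 (edgeR adjusted p = 0.104), and 0.96 and not called with the GC and length adjustment. At passage 4 the WT samples held 2 reads in all and the dKO samples 336, a ratio of 138 with a 95% counting interval of 37.9 to 1145, and the fitted log2 fold change of 6.96 ± 1.13 depends on the prior count. With ANKRD1 at the lower bound of that interval the median of the members at passage 4 was still 1.33. At day 28 the difference was not called (1.41 ± 0.70), and the 2 dKO samples themselves were 16.7 and 4.25.

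AJUBA, a LIM protein of junctions that binds the LATS kinases, was at 86.2 and 104 against 131 and 126 CPM at passage 2, 25.1 and 21.6 against 118 and 113 at passage 4, and 18.5 and 19.0 against 93.8 and 79.5 at day 28. It was called at passage 4 (2.32 ± 0.14) and day 28 (2.20 ± 0.13). The receptor tyrosine kinase gene AXL was at 62.7 and 74.5 against 104 and 91.9 CPM at passage 2, 33.1 and 34.9 against 91.1 and 94.4 at passage 4, and 21.6 and 24.0 against 51.9 and 61.0 at day 28, and was also called at these stages (1.44 ± 0.14 and 1.31 ± 0.14). AMOTL2, an angiomotin that binds YAP, was at 213 and 212 against 266 and 273 CPM at passage 2, 90.2 and 81.9 against 172 and 171 at passage 4, and 106 and 107 against 283 and 187 at day 28. At passage 4 its 1.00 ± 0.15 did not pass the fold limit, and at day 28 it was called (1.14 ± 0.14), though not without dKO sample 1 (0.83). AMOTL1, from the same family, was at 104 and 128 against 167 and 188 CPM at passage 2, 132 and 141 against 215 and 242 at passage 4, and 118 and 113 against 143 and 201 at day 28, and was called nowhere. The remaining members were the scaffold gene AKAP12, which binds protein kinase A, and the beta-tubulin gene TUBB6. AKAP12 was at 253 and 366 against 651 and 752 CPM at passage 2, 245 and 290 against 514 and 573 at passage 4, and 138 and 135 against 146 and 175 at day 28, and was called at passage 2 (1.16 ± 0.16) and passage 4 (1.02 ± 0.15). TUBB6 was at 78.3 and 92.4 against 167 and 194 CPM at passage 2, 104 and 96.1 against 114 and 105 at passage 4, and 49.4 and 50.9 against 77.8 and 81.1 at day 28, and was called at passage 2 (1.06 ± 0.14). For these genes, too, the calls lay near the fold limit: without WT sample 1 the values at passage 2 were 0.94 for AKAP12 and 0.97 for TUBB6. TUBB6 was at 0.95 without dKO sample 2, and AKAP12 at passage 4 at 0.90 without WT sample 1 and 0.94 without dKO sample 2. With the GC and length adjustment AKAP12 was at 0.98 and 0.78 at the passages and TUBB6 at 0.86 at passage 2, not called.

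Within each genotype the members were lower at the later stages. In WT NPCs, 21 of 36 were called lower and 0 higher at passage 4 than at passage 2, against a background of 9.49% and 10.3%. In dKO NPCs the same comparison called 9 lower and 0 higher, against 5.22% and 4.61%. From passage 2 NPCs to day 28, 20 fell and 0 rose in WT cells (background 11.5% and 12.9%), and 17 fell and 0 rose in dKO cells (3.14% and 4.01%). Median log2 fold changes were -1.21 and -0.64 for the passages and -1.22 and -0.91 for day 28. DESeq2 also called 0 higher in each, and at an unadjusted edgeR p below 0.05 alone 1 was higher in WT cells at day 28 and 1 in dKO NPCs at passage 4. These comparisons share their passage 2 samples with those of the genotypes. The WT counts at passage 4 were 25 without WT sample 1 of passage 2 and 16 without WT sample 2, and at day 28 they were 23 and 16.

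TAGLN fell by 3.78 and CCN1 by 3.32 on the log2 scale between the passages in WT NPCs, and by 1.95 and 1.46 in dKO NPCs. PDLIM7, TPM2, TEAD3, AJUBA and CAVIN1 fell in WT NPCs, by 1.75, 2.45, 2.11, 2.06 and 1.66, and were called in no direction in dKO NPCs, where their log2 fold changes lay between -0.26 and -0.15. ANKRD1 held 335 reads in the WT samples at passage 2 and 2 reads at passage 4. At day 28, CAV1 fell by 3.28 in WT and 3.19 in dKO cells relative to passage 2. CAVIN1 fell by 1.33 and 3.76, FLNC was not called in WT cells (0.08 ± 0.12) and fell by 1.38 in dKO cells, and ACTA2 was at -0.03 ± 0.43 in WT and fell by 2.13 in dKO cells. TEAD3 fell by 2.55 and TEAD2 by 2.10 in WT cells and were called in neither direction in dKO cells (0.18 ± 0.22 and -0.28 ± 0.16).

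Whether the knockout effect itself differed between stages was tested as a difference of differences in the same edgeR fit. From passage 2 to passage 4 the effect was called greater for 11 members and smaller for 1, where 9.72% and 9.57% of all genes were called. The 11 were TEAD3, CCN1, CCN2, ANKRD1, AJUBA, TAGLN, CNN1, TPM2, FLNC, PDLIM7 and CAVIN1, and the 1 was LIMA1. TPM2 (2.23 ± 0.31), AJUBA (1.90 ± 0.21), CCN1 (1.86 ± 0.28) and PDLIM7 (1.57 ± 0.22) are examples from 3 of the groups. The count of greater effects was 8 without WT sample 2 and 19 without WT sample 1 of passage 2. From passage 2 to day 28 the effect was greater for 4 members and smaller for 3, against 12% and 11.1%. TEAD3 (2.72 ± 0.35), TEAD2 (1.82 ± 0.23), AJUBA (1.79 ± 0.20) and TPM2 (1.13 ± 0.29) were the 4. CAVIN1 (-2.43 ± 0.35), ACTA2 (-2.10 ± 0.54) and FLNC (-1.46 ± 0.17) were the 3. The share of members called at day 28 was close to that of all genes, so these 7 are described as single genes.

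**Figure D3:**
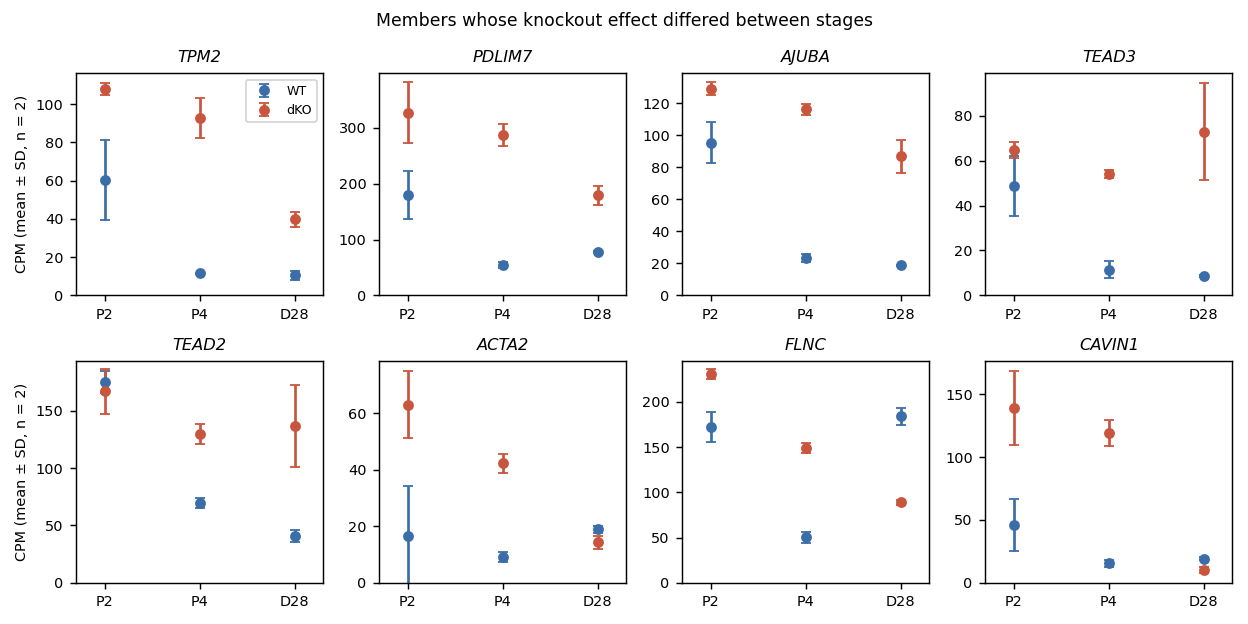
Mean CPM with SD (y axis, n = 2) of 8 members at passage 2, passage 4 and day 28 in WT (blue) and dKO (red) cells. For TPM2, PDLIM7, AJUBA, TEAD3 and TEAD2 the dKO means exceed the WT means at passage 4 and day 28, whereas for ACTA2, FLNC and CAVIN1 the dKO mean is below the WT mean at day 28. The SD of ACTA2 in WT cells at passage 2 exceeds its mean and runs below the axis.

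Levels can be set side by side between genes only per length, as CPM per kilobase of exons. By that measure CNN3 and FLNA were the highest members in WT cells at every stage, at 141 and 144 CPM per kilobase at passage 2, 169 and 81.3 at passage 4 and 92.0 and 86.9 at day 28. In dKO NPCs at passage 2 ANKRD1 (285 CPM per kilobase) and CCN2 (261) stood above FLNA (231) and CNN3 (191). At passage 4 and day 28 CNN3 and FLNA were again the highest in dKO cells, at 147 and 136 and at 143 and 139, followed by CCN2. TEAD2 was the most abundant TEAD factor at passage 2, at 58.8 in WT and 56.1 in dKO NPCs, and TEAD4 the least, at 5.08 and 4.16. In WT cells at day 28 TEAD1 was the highest of the 4, at 20.7 against 13.8 for TEAD2, whereas in dKO cells TEAD2 was at 46.0 and TEAD1 at 16.7. CAV2 was the lowest member at passage 2 in both genotypes, at 0.878 and 2.04.

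Genes of the same pathways outside the list were counted in the same way. These lists hold 123 genes, of which 107 passed the filter, and they too were chosen with earlier results known. At passage 2, 12 were called higher and 3 lower in dKO NPCs, at passage 4 23 and 10, and at day 28 29 and 13. The shares were 11.2% and 2.8% at passage 2 (2.59% and 1.83% of all genes), 21.5% and 9.35% at passage 4 (11.1% and 11.2%), and 27.1% and 12.1% at day 28 (12.4% and 11.7%). Other YAP and TAZ targets stood out by count at passage 4, with 9 of 15 called higher and 0 lower (median 1.47), and at day 28, with 7 and 0 (median 0.92). At passage 2 it was 2 and 0 (median 0.14). The higher shares were 13.3%, 60% and 46.7% at passage 2, passage 4 and day 28, against 2.59%, 11.1% and 12.4% of all genes. IGFBP3, which binds insulin-like growth factors, was at 4.34 and 2.05 against 43.1 and 44.9 CPM at passage 4 (3.83 ± 0.34). MYOF, a membrane repair protein, was at 12.7 and 15.7 against 103 and 110 CPM (2.89 ± 0.21), and LATS2, the kinase that inhibits YAP, at 6.68 and 10.3 against 55.5 and 60.3 CPM (2.74 ± 0.22). At passage 2 their differences were 0.86 ± 0.25, 0.08 ± 0.24 and 0.65 ± 0.22, none called.

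In the Hippo core list 1 of 17 genes was called higher and 1 lower at passage 2, 2 and 3 at passage 4, and 4 and 1 at day 28. At passage 2 each is 5.88%, against 2.59% and 1.83% of all genes. At passage 4 the shares are 11.8% and 17.6%, near the 11.1% and 11.2% of all genes. At day 28 they are 23.5% and 5.88%, against 12.4% and 11.7%. YAP1 itself was at 272 and 242 against 217 and 204 CPM at passage 2, 111 and 132 against 276 and 279 at passage 4, and 83.5 and 82.9 against 210 and 294 at day 28. It was not called at passage 2 (-0.28 ± 0.15) and was higher in dKO cells at passage 4 (1.19 ± 0.14) and day 28 (1.60 ± 0.14). WWTR1, which encodes TAZ and was added after its values were seen, was not called at any stage (0.73 ± 0.17, 0.42 ± 0.14 and -0.45 ± 0.13). FRMD6, an upstream activator of the Hippo kinases, was higher in dKO cells at all 3 stages (1.67 ± 0.29, 1.61 ± 0.22 and 2.35 ± 0.23), and the kinase gene STK3 at day 28 (1.55 ± 0.17).

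Of SRF, MRTF and their other targets, 2 of 12 were called higher and 1 lower at passage 2, 2 and 0 at passage 4, and 2 and 2 at day 28. The higher share was 16.7% at each stage, against 2.59%, 11.1% and 12.4% of all genes. TRIB1 was higher at passage 4 (2.05 ± 0.25) and day 28 (3.22 ± 0.23) and FHL2 at passage 4 (1.44 ± 0.30), whereas FHL1 was lower at day 28 (-2.22 ± 0.12). Other focal adhesion genes had 3 higher and 0 lower of 25 at passage 2, 7 and 1 at passage 4, and 9 and 4 at day 28. The higher shares were 12%, 28% and 36%, against 2.59%, 11.1% and 12.4% of all genes, and the lower ones 0%, 4% and 16%, against 1.83%, 11.2% and 11.7%. Both directions occurred among related LIM proteins: TES was higher at all 3 stages (1.13 ± 0.24, 2.31 ± 0.20 and 3.40 ± 0.19) and PDLIM1 at day 28 (2.78 ± 0.21), while PDLIM3 was lower at passage 4 (-1.83 ± 0.21) and day 28 (-1.91 ± 0.19). RhoA and ROCK signalling, the pathway that activates myosin, had 0 of 16 called by edgeR at either passage, although 7 and 10 had an unadjusted p below 0.05, and 2 were higher at day 28, MYLK (1.71 ± 0.24) and DIAPH3 (1.86 ± 0.20). These 2 are 12.5% of the list, near the 12.4% of all genes.

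Of 6 other caveolar coat genes, 1 was higher and 1 lower at passage 2, 1 and 0 at passage 4, and 1 and 1 at day 28. In this short list 1 gene is 16.7%, against 2.59%, 11.1% and 12.4% of all genes called higher. EHD4 was the higher gene at each stage (1.02 ± 0.24, 1.89 ± 0.24 and 1.44 ± 0.20). CAVIN4 was the lower gene at passage 2 (-1.10 ± 0.49, edgeR adjusted p = 0.294) and PACSIN1 at day 28 (-3.09 ± 0.38). Paralogs of the members had 3 higher and 0 lower of 16 at passage 2, 2 and 6 at passage 4, and 4 and 5 at day 28. The higher shares were 18.8%, 12.5% and 25%, against 2.59%, 11.1% and 12.4% of all genes. The lower ones were 0%, 37.5% and 31.2%, against 1.83%, 11.2% and 11.7%. Those called lower were led by forms that neurons express: TAGLN3 was at 156 and 142 against 21.1 and 21.3 CPM at passage 4 (-2.81 ± 0.32) and at 201 and 197 against 41.5 and 16.2 at day 28 (-2.82 ± 0.30), and TUBB4A differed by -3.15 ± 0.21 and -2.48 ± 0.18. MYH14, a non-muscle myosin heavy chain found in epithelia, was higher in dKO cells at day 28, at 9.12 and 9.26 against 61.3 and 101 CPM (3.15 ± 0.29). It was also called higher at passage 2, at 2.61 and 16.4 against 35.3 and 48.8 CPM (1.92 ± 0.48, edgeR adjusted p = 0.059). At passage 4 it was not called (0.56 ± 0.32).

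**Figure D4:**
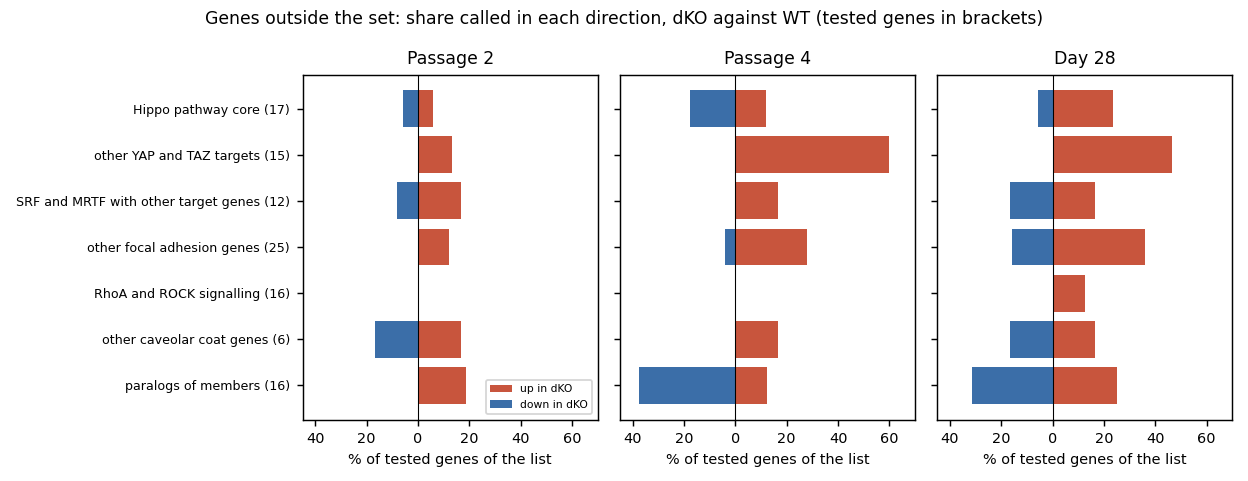
Share of tested genes (x axis, in percent, with the number tested in brackets) called higher (red, to the right) or lower (blue, to the left) in dKO cells, for 7 lists of genes outside the 39 members at passage 2, passage 4 and day 28. Other YAP and TAZ targets have the longest red bar at passage 4, with 9 of 15 genes, and no blue bar; RhoA and ROCK signalling has no bar at either passage.

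The summed markers of fibroblasts and mesenchyme and of epithelia were higher in dKO than in WT cells at each stage, as the members were. Those of neurons and astrocytes below were lower in dKO cells at the later stages. Over the stages the mesenchyme and epithelial sums did not follow the members. In dKO cells the member sums were highest at passage 2, mesenchyme markers at passage 4 and epithelial markers at day 28. Summed over 13 fibroblast and mesenchyme markers, levels were 313 to 660 CPM in WT and 1410 to 1660 CPM in dKO NPCs at passage 2. They were 479 to 485 and 2060 to 2090 CPM at passage 4 and 426 to 427 and 820 to 1000 CPM at day 28. Of the 9 that passed the filter, 7 were called higher and 0 lower at passage 2, 4 and 1 at passage 4, and 5 and 3 at day 28, with COL1A1 or COL1A2 the highest in dKO NPCs. The higher shares were 77.8%, 44.4% and 55.6%, against 2.59%, 11.1% and 12.4% of all genes, and 33.3% were lower at day 28, against 11.7%. TWIST2 was at 0 in all samples but 1, and DCN was at 0 in all 4 samples of passage 2. Summed over 8 epithelial markers, levels were 92.7 to 227 in WT and 468 to 545 in dKO at passage 2, 25.2 to 29.4 and 582 to 619 at passage 4, and 25.8 to 27.2 and 997 to 1970 at day 28. Here 3, 7 and 8 of the 8 were called higher, and KRT8 was the highest in each group. These are 37.5%, 87.5% and 100%, against 2.59%, 11.1% and 12.4% of all genes. At passage 2, 0 of the 3 epithelial and 3 of the 7 mesenchyme calls kept an edgeR adjusted p below 0.05. On that basis 0.981% of all genes were called higher. At the later stages all calls of both lists kept it. The 2 WT samples of passage 2 differed in both sums in the direction in which they differed in the members, and the part of these cell types in the results for members was not tested.

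Markers of mature smooth muscle were low, and their sum was higher in dKO NPCs at both passages. Summed over 7 such markers, levels were 7.83 to 11.2 CPM in WT and 16.5 to 36.8 CPM in dKO NPCs at passage 2, 4.68 to 6.42 and 9.84 to 12.5 CPM at passage 4, and 8.55 to 9.36 and 7.51 to 10.8 CPM at day 28, where the pairs overlapped. ACTG2, the smooth muscle gamma-actin gene, was at 5.22 and 7.45 against 12.8 and 24.8 CPM at passage 2. At passage 4 it was at 3.01 and 2.83 against 1.87 and 2.94, while LMOD1 was at 1 and 2.05 against 5.15 and 5.4. MYH11, DES and PLN were at 0 in both dKO samples of passage 4. None of the 7 passed the count filter, so none was tested, and MYH11 was at 0 in 11 of the 12 samples. Skeletal and cardiac muscle markers summed to 13.1 to 23.9 CPM in WT and 23.3 to 44.6 CPM in dKO NPCs at passage 2, 6.93 to 10 and 42.2 to 48 at passage 4, and 10.9 to 11.9 and 26.6 to 43.4 at day 28, with MYF5 and NKX2-5 at or near 0. TNNT1, a troponin of slow muscle and the only one of them to pass the filter, was called higher in dKO cells at passage 4 (4.45 ± 0.44) and day 28 (2.10 ± 0.29). The part of these muscle markers in the results for members was not tested. Endothelial markers, of which KDR was the highest in dKO cells, summed to 27.4 to 37.3 in WT and 60.1 to 70 in dKO at passage 2, 5.34 to 5.65 and 100 to 102 at passage 4, and 4.02 to 4.20 and 20.1 to 37.1 at day 28. KDR, the only 1 of these 8 to pass the filter, made up most of the dKO sums at the passages. It was at 51 and 53 CPM in dKO NPCs at passage 2 and at 80.6 and 86.8 at passage 4. The others were at most 12 CPM in any sample, and CDH5 and EMCN at most 0.245 CPM in dKO cells. Neural crest markers summed to 75.7 to 83.5 in WT and 93.3 to 104 in dKO at passage 2, 30.3 to 33.4 and 103 to 110 at passage 4, and 27.1 to 31.3 and 54.8 to 137 at day 28. Of 6 tested, 1, 3 and 4 were called higher and 0 lower (16.7%, 50% and 66.7% higher, against 2.59%, 11.1% and 12.4% of all genes). The 1 at passage 2 was ETS1 (1.22 ± 0.46, edgeR adjusted p = 0.205). The 3 at passage 4 were PAX3, at 0 and 0 against 32.1 and 33.1 CPM, SNAI2 (2.64 ± 0.35) and ETS1 (3.98 ± 0.52). SOX10 and FOXD3 were at most 0.96 and 0.668 CPM. NGFR, under the filter, was at 31.3 and 24.6 against 14.3 and 12 at passage 2. At day 28 TFAP2B was at 6.54 and 48.2 CPM in the dKO samples.

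Neuron markers and most astrocyte markers were lower in dKO cells at the later stages, whereas progenitor markers differed in both directions. Progenitor markers, which define the labelled cell type, summed to 3180 to 3550 CPM in the 4 samples of passage 2. At passage 4 they were at 3910 to 3960 in WT and 1760 in dKO NPCs, and at day 28 at 2380 to 2390 and 2010 to 2120. Of 9 tested, 0 were called higher and 1 lower in dKO NPCs at passage 2, 1 and 3 at passage 4, and 3 and 2 at day 28. The 1 lower at passage 2 is 11.1%, against 1.83% of all genes. At passage 4 the shares are 11.1% higher and 33.3% lower, against 11.1% and 11.2% of all genes. At day 28 they are 33.3% and 22.2%, against 12.4% and 11.7%. FABP7, at 1880 and 1720 against 87.1 and 79.2 CPM at passage 4, made up much of the WT sum there. PAX6 (4.53 ± 0.28), PROM1 (4.96 ± 0.21) and LHX2 (1.15 ± 0.15) were higher in dKO cells at day 28. HES5 was at or near 0 in every group, at most 2.61 CPM. Neuron markers summed to 1170 to 1380 in WT and 943 to 1040 in dKO NPCs at passage 2, to 4430 to 5020 and 762 to 777 at passage 4, and to 3920 to 3940 and 577 to 1080 at day 28. Of 9 tested, edgeR called 0 at passage 2, where 1 had an unadjusted p below 0.05, and 9 were lower in dKO cells at both later stages. These 9 are 100%, against 11.2% and 11.7% of all genes. Astrocyte markers summed to 283 to 332 in WT and 419 to 425 in dKO NPCs at passage 2. They were at 2210 to 2420 and 659 to 707 at passage 4, and at 1220 to 1240 and 296 to 784 at day 28. GJA1 made up most of the dKO sums at both passages. It was at 141 and 218 against 364 and 369 CPM at passage 2 and at 604 and 643 in dKO NPCs at passage 4. Of 7 tested, 0 were called higher and 1 lower at passage 2 (14.3%, against 1.83% of all genes). The 1 was SLC1A3, at 106 and 82.7 against 34.5 and 17.7 CPM. At both later stages GJA1 was called higher and 6 (85.7%) were lower, where 11.2% and 11.7% of all genes were. WT NPCs at passage 4 and WT cells at day 28, in which the members were lowest, were thus the groups with the highest neuron marker sums, and whether that accounts for the lower members was not tested. Of 3 choroid plexus markers tested, 0 were called at passage 2, and 2 were higher and 1 lower in dKO cells at both later stages. These are 66.7% higher, against 11.1% and 12.4% of all genes, and 33.3% lower, against 11.2% and 11.7%. The 2 pluripotency markers tested, LIN28A and L1TD1, were not called at passage 2 and were higher at both later stages (100%, against 11.1% and 12.4%). POU5F1 and NANOG were at 0 throughout.

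**Figure D5:**
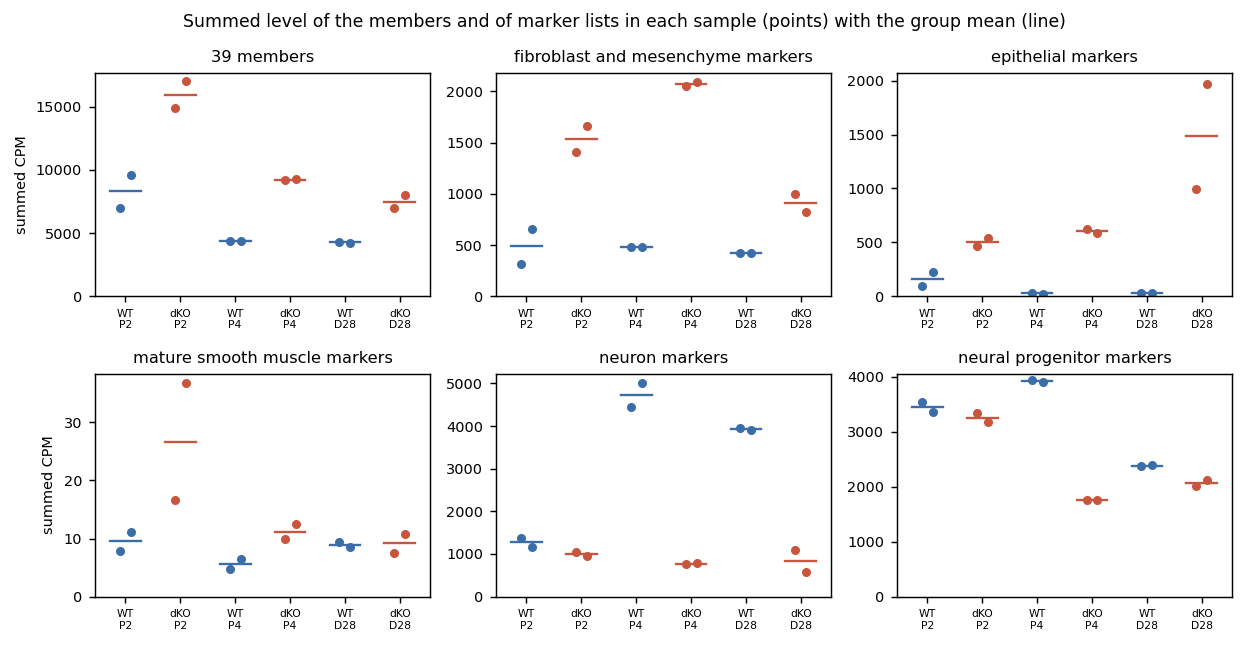
Summed CPM (y axis, own scale in each panel, from 0) of the 39 members and of 5 marker lists in each of the 12 samples, with a line at the group mean; blue is WT and red is dKO. The member, mesenchyme and epithelial sums are higher in dKO cells at each stage, the mature smooth muscle sum stays at or under 36.8 and is higher in dKO cells at both passages, and neuron markers are highest in WT cells at passage 4 and day 28.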

How the data were processed

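Raw counts per Ensembl gene were deposited by the authors for each sample, with no normalization or filter. Per the labels and the study's methods, RNA was extracted with TRIzol, libraries were made with a TruSeq kit and sequenced on a NextSeq instrument, and the submitters' processing notes name hg38, HISAT2 2.0.4, SAMtools 1.3.1, HTSeq 0.6.0 and DESeq 1.18.1. The annotation release behind the counts and the strand setting are not given in the sources used here. GENCODE release 44 gave symbols, positions, exonic length and GC content for 57532 of 58302 identifiers (98.7%), and promoter windows came from RefSeq. No library was left out, and 0 columns belonged to other samples.

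In R 4.3.3, TMM factors scaled the counts, and edgeR 4.0.16 (quasi-likelihood, robust) fitted 6 group means to 12 samples at once, for 13454 genes averaging 20 or more counts. Standard errors are the absolute log2 fold change over the root of the F statistic. Benjamini-Hochberg adjustment ran over all genes tested. With 2 samples per group an exact permutation test cannot go below p = 0.333, so none was used. Since nothing states that paired samples were separate cultures, p-values measure the spread between these samples, which may be technical. The precision of a level follows from the depth: 3 counts correspond to 0.302 to 3.92 CPM, which covers counting error only, since the reads carry no molecular identifiers and may repeat the same molecule. The fit was also run on simulated counts with known changes. These were drawn with its own estimates of spread, so the run cannot show whether 2 samples per group capture the variation between cultures.

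The members, the other gene lists and the markers were chosen with earlier results of these data known. Values of every sample are given for members called in a comparison of dKO with WT and for the caveolar, TEAD and YAP target genes, and of each other list the 3 called genes with the largest absolute fold change are named. Alternatives were DESeq2 1.42.0, an adjusted p below 0.05, a fit of only the samples compared, filters of at least 1 count in any or 10 in every sample, offsets for GC content and exonic length (10 bins, pseudocount 0.1), the replicate number as a block, and each sample left out.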

Additional observations from a re-analysis of the deposited data

Results flagged for a closer look

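These members were singled out because the test of the difference itself, a contrast of the edgeR fit, was passed at an unadjusted p below 0.05 and more than a 2-fold difference between stages. Each value is the log2 fold change of dKO over WT at the later stage minus that at passage 2.

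At passage 4 the effect was greater than at passage 2 for 11 genes. Among YAP targets and TEAD factors these were ANKRD1 (5.22), AJUBA (1.90), CCN1 (1.86), TEAD3 (1.85) and CCN2 (1.38). Actin and adhesion genes were TPM2 (2.23), CNN1 (1.92), TAGLN (1.84), PDLIM7 (1.57) and FLNC (1.15), and the caveolar gene was CAVIN1 (1.43). LIMA1 had the opposite sign (-1.13). The ANKRD1 value rests on 2 reads in the WT samples of passage 4 and depends on the prior count. CNN1 and TAGLN had edgeR adjusted p of 0.0758 and 0.053. Without WT sample 2 of passage 2 the values were 0.98 for TAGLN, 0.80 for CAVIN1, 0.65 for CCN2, 0.57 for CNN1 and -0.98 for LIMA1, none of them called. LIMA1 was also not called without dKO sample 1 of passage 4 (-0.98), CNN1 without dKO sample 1 of passage 2 (1.63) or WT sample 1 of passage 4 (1.57), and ANKRD1 without WT sample 2 of passage 4 (4.09). With GC and length offsets CCN2 was at 0.70 and FLNC at 0.56, and with only the samples compared CCN2 was at 1.41 and TAGLN at 1.87, not called either.

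At day 28 the effect was greater for TEAD3 (2.72), TEAD2 (1.82), AJUBA (1.79) and TPM2 (1.13), and smaller for CAVIN1 (-2.43), ACTA2 (-2.10) and FLNC (-1.46). TPM2 was at 0.67 without WT sample 2 of passage 2 and at 0.90 without WT sample 1 of day 28, and was not called in either fit.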

How the results depend on the processing

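The limits of these data are 2 samples per group, low depth at passage 2 and a WT pair there that differs across most members. Of 73 calls of single members, DESeq2 kept 72, an adjusted p below 0.05 67, a fit of only the samples compared 65, offsets for GC content and gene length 58, and at least 1 count in any sample 71. With at least 10 counts in every sample 63 of 64 were kept, and no call reversed under any alternative. For the cause of a lost call nothing was tested beyond the setting itself.

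Counts that moved by over 1.5 times were as follows. Higher at passage 2 were 8 members with GC and length offsets and 9 with only the samples compared. Lower at passage 4 was 1 with at least 1 count in any sample, where CAV2 enters the test. Lower at day 28 were 0 with GC and length offsets, with and without the block. The smaller effects at passage 4 than at passage 2 numbered 2 with at least 1 count in any sample. With GC and length offsets the medians of dKO over WT were 0.59, 1.15 and 0.91.

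Leaving out each sample gave 7 to 19 members higher at passage 2, 22 to 23 at passage 4 and 14 to 17 at day 28, with 0 to 0, 0 to 1 and 1 to 2 lower. From passage 2 to day 28, 16 to 23 were lower and 0 to 1 higher in WT and 17 to 20 lower and 0 to 0 higher in dKO cells. Between the passages 16 to 25 were lower in WT and 8 to 12 in dKO NPCs, with 0 to 0 higher. Greater effects numbered 8 to 19 at passage 4 and 4 to 6 at day 28, and smaller ones 0 to 3 and 3 to 6.

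The replicate numbers are shared by all groups, but deviations of samples with the same number correlated at 0.018 on average over 15 pairs of groups, from -0.058 to 0.194, so the numbers were not taken to pair the samples. With the replicate block, 14, 22 and 17 members were higher at passage 2, passage 4 and day 28, and 73 of 73 calls were kept. With the block and the GC and length offsets 10, 20 and 16 were higher and 60 of 73 calls were kept.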
